A study of Rattus norvegicus with 2 samples.

Results

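The subunits of the sodium pump and the FXYD proteins that act on it were examined in the urine RNA of rats with a ligated ureter and of sham-operated rats. The 6 genes described are Atp1b1, Atp1b2 and Atp1b3, which encode beta subunits, and Fxyd2, Fxyd3 and Fxyd5, which encode FXYD regulators. They were found by gene symbol among the 16484 annotated genes (features whose identifier is an NCBI gene number) of the 113011 features listed. All 6 were found, and 5 of them had an FPKM of at least 1 in either library (FPKM is the number of sequenced fragments scaled to transcript length and to library size, so that levels of different genes are given per length). Atp1b2 was the gene under this limit.

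The study has 2 libraries, labelled WT and UUO, each 1 total RNA library from urine of Sprague Dawley rats. UUO stands for unilateral ureteral obstruction, in which the right ureter was tied off so that the kidney scars. The WT library comes from rats that had the same operation without the ligation, and no genetic change is named for either group. Surgery was at 8 weeks of age (the labels also give postnatal day 56) and sampling 2 weeks later. Neither the labels nor the methods give the number of rats behind a library. According to the methods, urine was drawn through a catheter from the ureter joined to the kidney. The WT library also held prostate transcripts, with Andpro, an androgen-regulated prostate gene, at 792 FPKM and Sbp, which encodes spermine binding protein, at 159.9, and both were listed at 0 in UUO urine (picked with their values in view). The prostate empties below the bladder, and the part of such RNA in the values below was not tested. The condition names in the deposited table are abbreviations, and the reading of them as UUO and WT rests on the study's published urine lists, where the same values stand under UUO and Sham headings.

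With 1 library per group there was no replicate check and no test, so each difference below describes these libraries only. In bulk urine RNA, fewer cells of a type and less RNA per cell cannot be told apart. The methods also state that urine was spun before storage and once more before RNA was isolated, without naming the fraction kept. The part of RNA from outside cells in the values was thus not tested. From the steps between the FPKM values, 1 fragment on a 1000 bp transcript was worth 0.542 FPKM in WT and 0.497 FPKM in UUO urine, and 3 fragments were worth 1.63 and 1.49. A value of 0 is given as "listed at 0", since genes that every cell uses were among them (of 77 genes for ribosomal proteins, 28 in WT against 21 in UUO urine).

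The sodium pump, or Na,K-ATPase, moves sodium out of the cell and potassium into it at the cost of ATP. In kidney tubule cells it lies in the basolateral membrane, where the gradient it makes drives the uptake of sodium and of many solutes from the tubular fluid. The alpha subunit carries out the transport, the glycosylated beta subunit is needed to fold it and bring it to the surface, and an FXYD protein, a small membrane protein named for a short amino acid motif, can join the pair and change its affinity for ions.

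The genes split into a set that was abundant in both libraries and a set that was low or listed at 0 in WT urine and present in UUO urine. Fxyd2 and Atp1b1 formed the first set, and both had a lower FPKM in UUO urine as deposited, a direction that turned with other scalings of the libraries. Atp1b3, Fxyd3 and Fxyd5 formed the second. In the plot of levels by gene, the points of the first set lie close together and those of the second far apart.

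**Figure D1:**
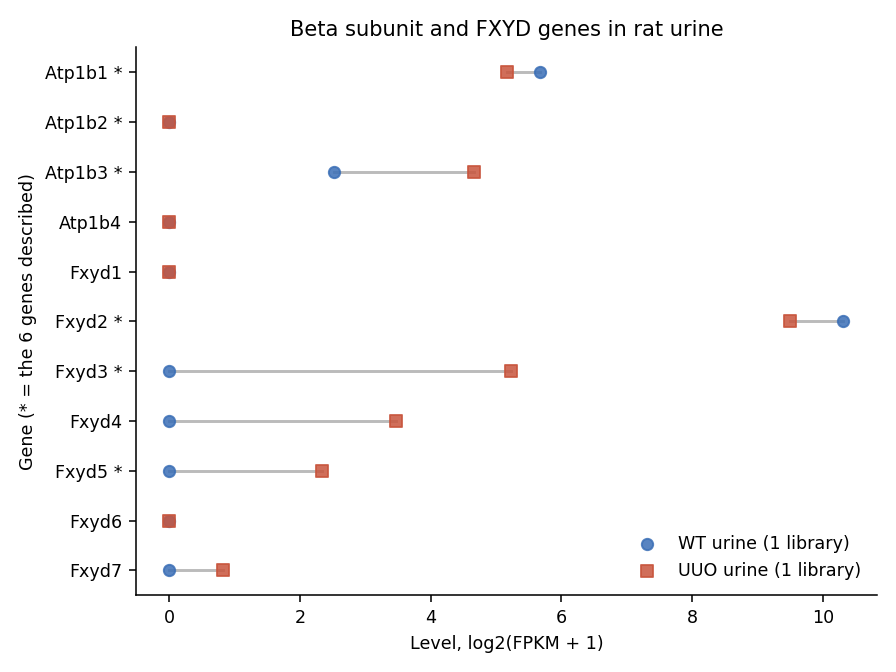
Level of the beta subunit and FXYD genes, as log2(FPKM + 1), in the WT (circle) and UUO (square) urine library, with 1 library per group and a line joining both values of a gene. Fxyd2 was the highest in both libraries, while Fxyd3, Fxyd4 and Fxyd5 were listed at 0 in WT urine.

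Atp1b1 (gene ID 25650, chromosome 13, 87491613 to 87642318, rn5) encodes the beta subunit that is most common in kidney tubules. Its FPKM was 50.0 in WT against 35.1 in UUO urine, a log2 difference of -0.50 on the log2(FPKM + 1) scale used throughout. The WT value was 1.42 times the UUO value. Across the 9853 annotated genes with an FPKM of at least 1 in either library the median log2 difference was -0.51, so that Atp1b1 lay at the middle of the genes, at percentile 50.3. Its rank within the library was 1428 of 8024 genes above 0 in WT urine and 963 of 12008 in UUO urine. The listed locus is a merged region of 12 features that also holds Nme7, a nucleoside diphosphate kinase family gene, at 12.4 FPKM (WT) and 8.65 FPKM (UUO).

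Atp1b3 (gene ID 25390, chromosome 8, 103626430 to 103669634) encodes a beta subunit found in many tissues, including leukocytes. Its FPKM was 4.75 in WT against 24.4 in UUO urine, 5.14 times higher, with a log2 difference of 2.14. On a transcript of 1000 bp these values would stand for 8.77 and 49.1 fragments, so at that length the WT value would rest on few fragments. Of the leukocyte markers above 0 in both libraries, 1 of 4 was at least 2-fold higher and 1 lower, and their part in the difference of Atp1b3 was not tested. Of the 7784 annotated genes above 0 in both libraries and with an FPKM of at least 1 in either, 8.11% were at least 2-fold higher and 44.1% at least 2-fold lower in UUO urine. Atp1b3 was at rank 150 of them by its difference, at percentile 98.1, while their median was -0.84. Within the libraries it moved from rank 6548 of 8024 genes above 0 (percentile 18.4) in WT to rank 1485 of 12008 (percentile 87.6) in UUO urine. These percentiles are of unlike sets of genes. In UUO urine Fxyd5, at 4.03 FPKM, already lay at percentile 45.6. Ranked among all features instead, Atp1b3 lay at percentile 63.7 in WT and 96.7 in UUO urine, and Fxyd5 at 82.1 in UUO urine. The low WT percentile of Atp1b3 thus depended on the set it was ranked in.

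The overlapping entries at the Atp1b3 locus did not all follow the gene. NONRATG028853, a noncoding database entry there, stood at 5.23 FPKM in WT and at 2.17 in UUO urine, and NONRATT053812 had 5.14 and 1.48. Both were thus higher in WT urine, opposite to Atp1b3. Their WT values were close, so they may hold the same signal and are not counted as separate support. Summed over the 8 features of the locus, FPKM was 15.9 in WT against 32.4 in UUO urine, and the log2 difference was 0.98, just under the 2-fold limit. This sum adds overlapping entries and may count the same signal more than once. The named entries were chosen after their values were seen, and how reads were shared among them was not tested.

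Atp1b2 (gene ID 24214, chromosome 10, 55951259 to 55957510) encodes the beta subunit known from glia and neurons. It was listed at 0 in WT urine and reached only 0.000264 FPKM in UUO urine, far below the value of 1 fragment. No level of Atp1b2 can be given from this, since 21 of the 77 ribosomal protein genes were also listed at 0 in both libraries. The beta subunit gene Atp1b4, which is known from muscle, was listed at 0 in both.

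Because both beta subunits that were detected can be compared within a library, their ratio does not depend on how the libraries are scaled. Atp1b3 stood at 0.0951 of the Atp1b1 FPKM in WT urine and at 0.696 in UUO urine, 7.32 times higher. Of the summed beta subunit FPKM, Atp1b3 held 8.68% in WT against 41.0% in UUO urine, and Atp1b1 held 91.3% and 59.0%. The sum itself was 54.7 in WT against 59.5 in UUO urine. The ratio of the locus sums was 0.253 in WT against 0.696 in UUO urine. These sums add Nme7 to Atp1b1 and noncoding entries to both genes. They are thus not of the beta subunits alone, and they may count the same signal more than once.

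**Figure D2:**
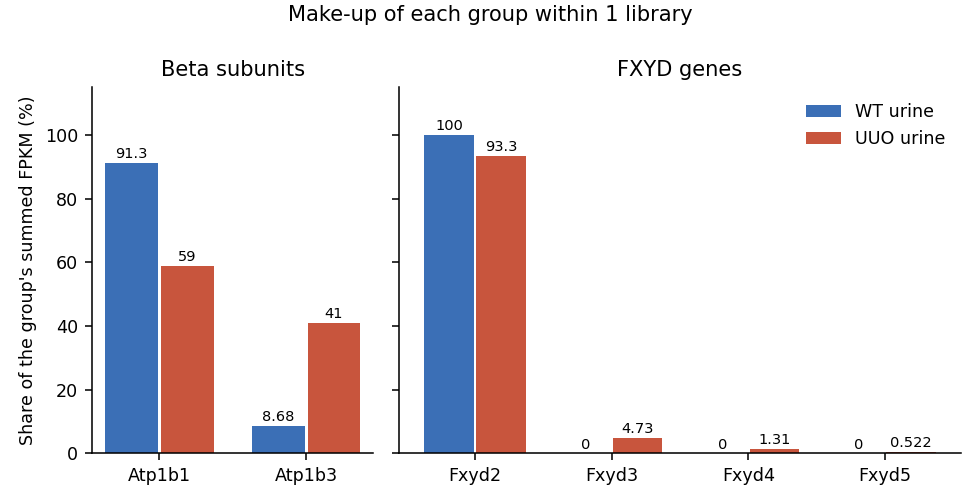
Share of the summed FPKM of all beta subunit genes (left) and of all FXYD genes (right) held by each gene, in percent, within the WT and the UUO urine library (1 library each). Genes under an FPKM of 1 in both libraries are not drawn. Atp1b3 held 8.68% (WT) and 41.0% (UUO) of the beta subunit sum, and Fxyd2 held 100% of the FXYD sum in WT and 93.3% in UUO urine.

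Fxyd2 (gene ID 29639, chromosome 8, 48338772 to 48343483) encodes the gamma subunit of the renal pump, which is known from the proximal tubule and the thick ascending limb. It was by far the most abundant of the 6 genes. Its FPKM was 1272 in WT against 719.9 in UUO urine, a log2 difference of -0.82, and the WT value was 1.77 times the UUO value. It was at rank 12 of all annotated genes in WT and at rank 20 in UUO urine. Its difference lay at percentile 41.7 of the annotated genes.

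The ratio of Fxyd2 to Atp1b1 was 25.5 in WT against 20.5 in UUO urine, so that these genes moved nearly together (0.806 times the WT ratio). FPKM of short transcripts such as those of the FXYD genes depends on the length correction, so a ratio above 1 is not a ratio of molecules.

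Fxyd3 (gene ID 116831, chromosome 1, 90647152 to 90664447) encodes an FXYD protein known from stomach, colon and other lining epithelia. It was listed at 0 in WT urine and reached an FPKM of 36.5 in UUO urine (log2 difference 5.23). In UUO urine this was above Atp1b1, at 1.04 times its FPKM, and equal to 0.0507 of Fxyd2. It was at rank 916 of the genes above 0 in UUO urine. Among the 1903 annotated genes that were listed at 0 in WT and had an FPKM of at least 1 in UUO urine, whose median FPKM was 2.79, Fxyd3 was at rank 22. Of 10 urothelial markers that passed the filter 4 were higher and 2 lower, against 25.7% and 36.5% of all annotated genes. Of the 9 above 0 in both libraries 3 were higher and 2 lower. Krt5 was at 0 in WT and 51.8 in UUO urine, but Psca was at 557 and 97.6. The part of urothelial markers in the value of Fxyd3 was not tested. The locus also holds Lgi4, a secreted glycoprotein gene, which was listed at 0 in WT urine and at 0.512 in UUO urine.

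Fxyd5 (gene ID 60338, chromosome 1, 90620332 to 90629734) encodes dysadherin, an FXYD protein with a long extracellular part that is known from epithelia and lymphoid tissue. It was listed at 0 in WT urine and reached an FPKM of 4.03 in UUO urine (log2 difference 2.33). On a 1000 bp transcript this would be 8.11 fragments. Among the 1903 genes listed at 0 in WT urine it was at rank 660, so that a value of this size was common in that class. Of 11 leukocyte markers that passed the filter, 8 were higher and 1 lower (72.7% and 9.09%, against 25.7% and 36.5% of all annotated genes). Of the 8 higher, 7 were listed at 0 in WT urine. Ptprc was at 0 in WT and 3.33 in UUO urine, while Lcp1, the lower 1, was at 149.9 and 20.3. The part of leukocyte markers in the value of Fxyd5 was not tested.

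Fxyd3 and Fxyd5 lie near each other on chromosome 1 in a row of 4 FXYD genes, together with Fxyd1 and Fxyd7, over 44.1 kb (90620332 to 90664447). All 4 were listed at 0 in WT urine. In UUO urine Fxyd7, known from brain, had an FPKM of 0.760, and Fxyd1, which encodes phospholemman of heart and skeletal muscle, was listed at 0. So 3 of the 4 were above 0 in UUO urine, and their levels ranged from 0.760 to 36.5. Of these, Fxyd7 was under the FPKM limit of 1. Among all 16484 annotated genes, 8024 were above 0 in WT and 12008 in UUO urine.

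The sequences just upstream of the start of Atp1b3 and Fxyd5 are shown because both genes were at least 2-fold higher in UUO urine, and that of Atp1b2 because this beta subunit gene had no level above that of 1 fragment. RefSeq promoter entries (assembly GRCr8, not the build of the files) matched 3 of the 6 genes. Each line gives the 250 bases before the start, 5′ to 3′ on the strand of the gene, with capitals for the GC box, GGGCGG or its reverse complement CCGCCC.
Atp1b3 (chr8:105821152-105821401, minus strand): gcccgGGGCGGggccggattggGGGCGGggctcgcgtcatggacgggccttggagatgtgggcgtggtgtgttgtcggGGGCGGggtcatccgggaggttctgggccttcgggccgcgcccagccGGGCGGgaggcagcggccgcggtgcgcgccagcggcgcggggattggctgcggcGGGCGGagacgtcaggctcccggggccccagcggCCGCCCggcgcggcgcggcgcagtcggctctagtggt
Fxyd5 (chr1:95404723-95404972, minus strand): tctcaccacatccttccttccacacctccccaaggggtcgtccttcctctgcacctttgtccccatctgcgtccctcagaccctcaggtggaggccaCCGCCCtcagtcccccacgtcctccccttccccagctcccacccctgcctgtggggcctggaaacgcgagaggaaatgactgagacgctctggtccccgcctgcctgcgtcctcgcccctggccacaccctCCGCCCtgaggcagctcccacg
Atp1b2 (chr10:54823709-54823958, minus strand): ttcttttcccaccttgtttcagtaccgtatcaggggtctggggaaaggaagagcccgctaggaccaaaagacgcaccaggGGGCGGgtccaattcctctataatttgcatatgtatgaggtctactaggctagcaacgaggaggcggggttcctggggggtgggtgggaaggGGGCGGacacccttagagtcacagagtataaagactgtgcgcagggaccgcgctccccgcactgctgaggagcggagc

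The GC box was present 6 times upstream of Atp1b3, and 2 times each upstream of Fxyd5 and Atp1b2. A 2nd listed start of Fxyd5 had 0 matches. At least 1 match was found in 30.5% of 33469 rat promoter windows of the same length. The window of Atp1b3 was 79.6% G and C, at percentile 98.9 of all windows, against 67.2% for Fxyd5 and 58.0% for Atp1b2. The AP-1 motif TGANTCA was in none of the 3 windows (0 matches), and 6.34% of all windows held it. The CCAAT box (CCAAT or ATTGG) was present 2 times in Atp1b3, 1 time in Atp1b2 and 0 times in Fxyd5, and 34.02% of all windows held it. These matches describe the letters of the windows and say nothing of binding.

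Counted by the 2-fold limit, 3 of the 5 genes that passed the filter were higher in UUO urine and 0 were lower, which became 1 higher and 2 lower or 5 higher and 0 lower under opposite scalings by the 75th percentile. Among the 9853 annotated genes 25.7% were higher and 36.5% lower. Fxyd3 and Fxyd5 passed the filter through UUO urine alone, so that they had to differ by 2-fold once they passed. The same holds for 75.1% of the 2534 higher genes, which were listed at 0 in WT urine. Atp1b3 was the only one of the 3 with a value above 0 in both libraries.

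**Figure D3:**
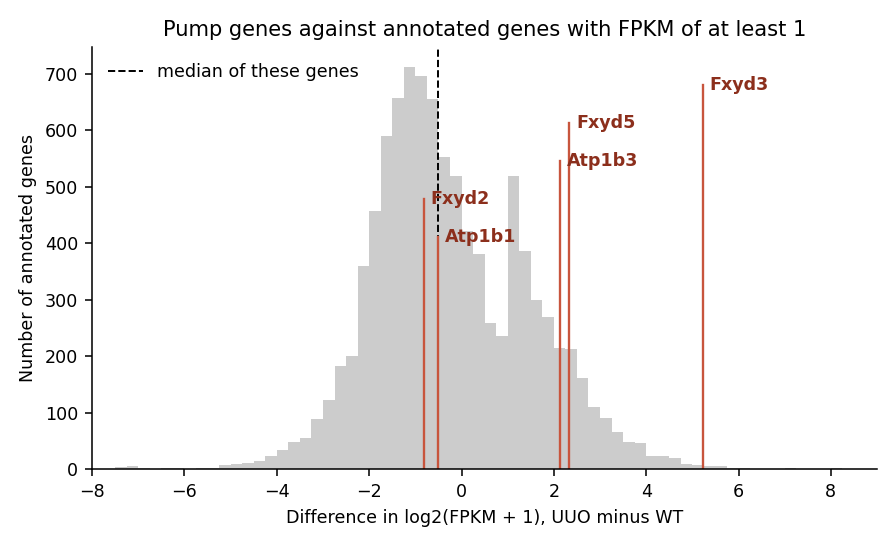
Number of annotated genes by their difference in log2(FPKM + 1), UUO minus WT, for the 9853 genes with an FPKM of at least 1 in either library, in bins of equal width. Atp1b1 and Fxyd2 (lines) lay near the dashed median of -0.51, and Atp1b3, Fxyd5 and Fxyd3 lay at 2.14, 2.33 and 5.23. The step at 1 marks genes listed at 0 in WT urine, which enter only above it.

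Fxyd4 (gene ID 64190), which encodes a regulator known from the collecting duct, was listed at 0 in WT urine and had an FPKM of 10.1 in UUO urine, so that Fxyd2 was the only FXYD gene above 0 in WT urine. Fxyd6 was listed at 0 in both libraries. At the locus of Fxyd6, which lies beside that of Fxyd2, the noncoding entry NONRATT053161 stood at 27.4 FPKM in WT and at 23.2 in UUO urine (chosen after its values were seen).

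Genes of sodium cotransporters, exchangers and channels, most of which bring in the sodium that the pump clears, went in both directions, and the signs of their median and of those of the other lists below, except red cell markers, turned with the scaling or the filter. Of 13 such genes, 12 had an FPKM of at least 1 in either library, with 2 higher, 5 lower and 5 under the 2-fold limit, against 25.7% higher and 36.5% lower among all annotated genes, which as shares is 16.7% higher and 41.7% lower. The median log2 difference was -0.32. Scnn1a, the alpha subunit of the epithelial sodium channel, stood at 18.4 FPKM in WT and at 1.16 in UUO urine, and Slc5a1, a sodium and glucose cotransporter, had 5.13 and 0.174. On the other side, Slc4a4, a basolateral cotransporter that in the proximal tubule carries sodium and bicarbonate out of the cell rather than in, was listed at 0 in WT urine and had 3.70 in UUO urine, and so passed the filter through UUO urine alone. Scnn1g, the gamma subunit of the same channel as Scnn1a, had 2.995 in WT against 9.72 in UUO urine, and Scnn1b, the beta subunit, had 14.4 and 12.96.

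Among 13 kinases, receptors and ligases that act on sodium transport, all 13 passed the filter, with 1 higher and 3 lower (7.69% and 23.1%, both under the shares among all annotated genes) and a median of -0.23. Ppp1r1b, which encodes the phosphatase inhibitor DARPP-32, stood at 296.6 FPKM in WT and at 12.7 in UUO urine. Nr3c2, the mineralocorticoid receptor, had 16.0 and 2.57. Hsd11b2, the enzyme that keeps glucocorticoids off that receptor, was higher in UUO urine, with 39.2 against 9.67.

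Of 9 genes for potassium and chloride channels of tubule cells, most of them basolateral, 7 passed the filter, with a median of 0.32. Of these, 3 were higher and 3 lower (42.9% each, against 25.7% and 36.5% of all annotated genes). The 3 that were higher (Kcnq1, Kcne1 and Kcnj1) were listed at 0 in WT urine and passed through UUO urine alone. Of the 4 above 0 in both libraries 3 were lower and 0 higher, with a median of -1.91, where the median of all annotated genes above 0 in both was -0.84. Kcnj15 stood at 7.30 FPKM in WT and at 0.648 in UUO urine, and Kcnj16 had 21.0 and 4.53, both genes of inward rectifier potassium channels. Kcne1, a potassium channel accessory subunit, and Kcnj1, the ROMK channel of the apical membrane, were listed at 0 in WT urine and had 4.67 and 2.83 in UUO urine.

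Of 12 relatives and partners of the pump, 9 were found and 3 passed the filter, with 0 higher and 2 lower. As shares this was 0% and 66.7% of only 3 genes, against 25.7% and 36.5% of all annotated genes. Add1, a membrane skeleton protein, stood at 152.7 FPKM in WT and at 38.2 in UUO urine, and Ank3, an ankyrin that anchors the pump, had 23.0 and 10.8. Their list had a median of -1.03, which was -0.16 by the median ratio and 1.58 by each library's own 75th percentile. The H,K-ATPase genes Atp4a, Atp4b and Atp12a, the nearest kin of the pump, were all under an FPKM of 1 in both libraries.

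**Figure D4:**
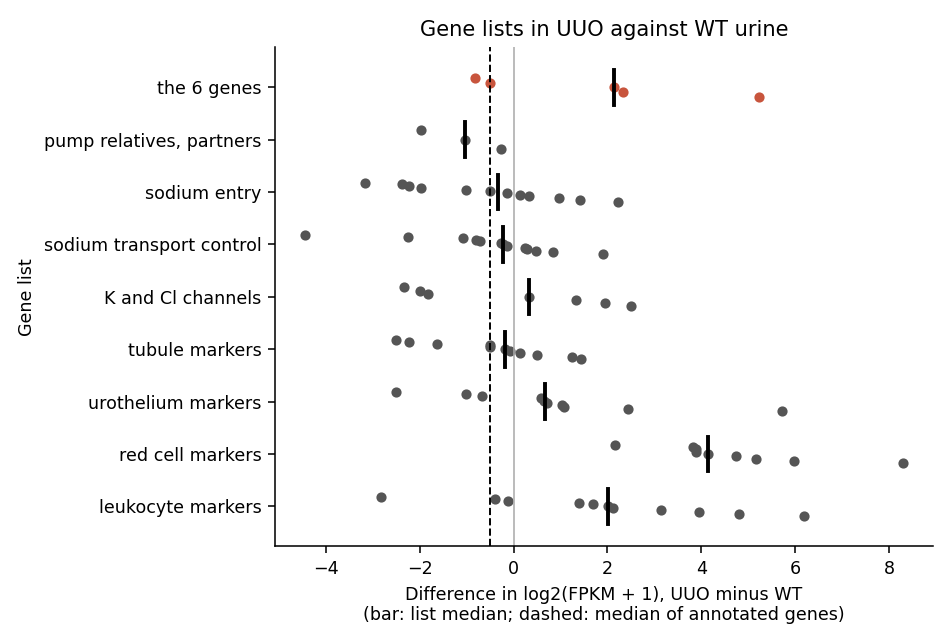
Difference in log2(FPKM + 1), UUO minus WT, of each gene with an FPKM of at least 1 in either library (points), by gene list, with the list median (bar) and the median of all annotated genes at -0.51 (dashed), all as deposited. The 6 genes spread from -0.82 to 5.23, with a median of 2.14 over the 5 that passed the filter (0.82 at an FPKM of at least 5) that rests on Fxyd3 and Fxyd5, listed at 0 in WT urine.

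Markers of the cells that urine can hold went in both directions, except those of red cells, and their part in the values of the 6 genes was not tested. Of 11 tubule markers that passed the filter (12 in all), 2 were higher and 3 lower (18.2% and 27.3%, against 25.7% and 36.5% of all annotated genes). The tubule markers summed to 310.9 FPKM in WT and 291 FPKM in UUO urine, of which Aqp3 alone gave 85.1 and 120.7. Among them Lrp2, the endocytic receptor megalin, had 38.7 in WT against 5.995 in UUO urine, and Slc34a1, the phosphate cotransporter of the proximal tubule, had 32.7 and 6.24, while Calb1, of the distal nephron, had 12.6 and 35.6 and Cdh16, a cadherin of tubule cells, 4.48 and 12.01. Parvalbumin (Pvalb), a distal tubule marker, was listed at 0 in both.

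Of 10 urothelial markers found (of 11), 4 were higher and 2 lower, against 25.7% and 36.5% of all annotated genes. Of the 9 above 0 in both libraries (all but Krt5), 3 were higher and 2 lower. Among all annotated genes above 0 in both, the shares were 8.11% higher and 44.1% lower. The summed FPKM of the urothelial markers was 2090 in WT against 2556 in UUO urine. Krt5, the basal cell keratin, was listed at 0 in WT urine and had 51.8 in UUO urine, and Tp63, a basal cell transcription factor, had 1.92 and 14.9. Psca, a surface antigen, had 557 in WT and 97.6 in UUO urine, and Krt20, of superficial cells, had 26.4 and 12.5.

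Of 12 leukocyte markers, 11 passed the filter, with 8 higher and 1 lower (72.7% and 9.09%, against 25.7% and 36.5% of all annotated genes). However, 7 of the 8 higher were listed at 0 in WT urine and passed through UUO urine alone. The summed FPKM of the leukocyte markers was 229.5 in WT against 241.9 in UUO urine, of which Lcp1 alone gave 149.9 and 20.3. Ptprc, the CD45 antigen, was listed at 0 in WT urine and had 3.33 in UUO urine, and S100a8 and S100a9 went from listed at 0 to 27.0 and 71.7. The T cell gene Cd3e was listed at 0 in both libraries. All 9 red cell markers found (of 10) were higher, and their summed FPKM was 3208 in WT against 88958 in UUO urine, with Hbb at 877 and 54777 and Alas2 at 0.317 and 413.6.

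Genes with levels most like those of each of the 6 were named by the distance of log2(FPKM + 1) over the 2 libraries, which is a weak measure of likeness with so few points. Srebf2 was nearest to Atp1b1 (distance 0.00612), Arhgap11a to Atp1b3 (0.0515), Tmsb4x to Fxyd2 (0.167), Vamp5 to Fxyd3 (0.00741) and Syk to Fxyd5 (0.00106). Within a distance of 0.1 there were 132 genes for Fxyd5 and 10 for Atp1b1, but 1 for Atp1b3 and 0 for Fxyd2. For Atp1b2 there were 4478, most of them at or near 0, and B3galt6 was the nearest.

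The direction of Atp1b1 and Fxyd2 depended on the scaling of the libraries, while Fxyd3 and Fxyd5, which are listed at 0 in WT urine, cannot change direction with any scaling. Fxyd5 was under the 2-fold limit with a pseudocount of 10 (0.49) and with UUO values multiplied by 0.105 (0.51). After rescaling by the median ratio over annotated genes, which multiplies UUO values by 1.91, the log2 difference was 0.42 for Atp1b1 and 0.11 for Fxyd2. The difference of Atp1b3 was above 0 under each setting but 1, in which UUO values were multiplied by 0.105 and it was -0.69. Since a scaling multiplies all UUO values by 1 factor, the order of the genes in the plot of differences by setting could hardly change with it.

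**Figure D5:**
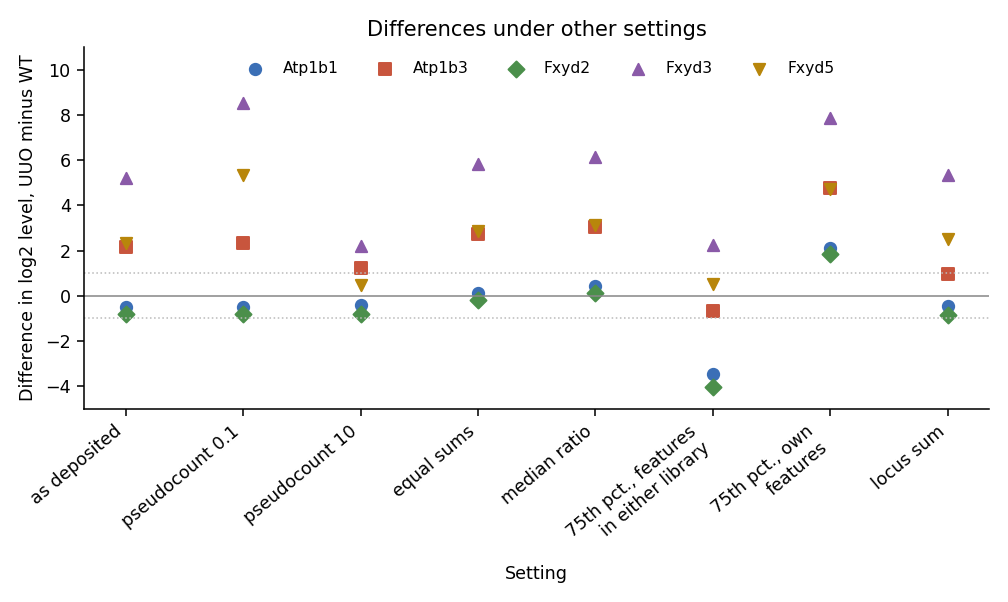
Difference in log2 level, UUO minus WT, of the 5 genes with an FPKM of at least 1 in either library, as deposited and under other settings (1 library per group; dotted lines at -1 and 1). Atp1b1 and Fxyd2 crossed 0 with the scaling, and Atp1b3 was 0.98 when FPKM was summed over the locus. That sum adds overlapping entries and may count the same signal more than once.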

How the data were processed

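The deposited table gives FPKM values that the authors computed, 1 per feature and library, from read pairs aligned to the rat genome. The submitters' processing notes name build rn5, Bowtie2 2.0.6, TopHat2 2.0.9, Cufflinks 2.1.1 and Cuffdiff 2.1.1, and loci are given as listed in the table. The total used for the scaling is not given in the sources used here. The columns of the authors' own comparison (fold changes, test statistics, p-values and q-values) were not used.

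A listed locus is a merged region, and 94.5% of features share theirs, so reads are divided among overlapping entries. Symbols came from the RefSeq table of GRCr8, which matched 16329 of 16484 gene numbers. Differences are UUO minus WT in log2(FPKM + 1), and counts use a 2-fold limit among genes with an FPKM of at least 1 in either library. No p-value was computed, since each group has 1 library. Fragment steps were fitted to short assembled features that share their locus with no other. Within 0.1 of a whole fragment were 93.5% of 186 WT and 99.5% of 3530 UUO values, at normalising totals of 2116500 and 2441000 fragments. The fit was tested on data simulated with the length model that it assumes, so the test could not check that model. The simulated fragment counts were near the UUO median of 9.00 fragments and below the WT median of 22.0. The depth of the pump genes themselves is unknown, and intervals were not given.

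The genes and 9 gene lists were chosen with earlier results of these data known. Named genes were the 6, other beta subunit and FXYD genes, the genes of each list at least 2-fold apart (with more than 4, the 2 most extreme in each direction) and the nearest gene to each of the 6. Some genes that this rule names, and 1 list that holds them, are not reported here. Any other gene was picked with its values in view. Alternatives were pseudocounts of 0.1 and 10, scalings, a sum over the locus, a rank among all features, other filters and a 4-fold limit. Python 3.11.15, pandas 2.3.3 and numpy 2.4.6 were used.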

Additional observations from a re-analysis of the deposited data

Results flagged for a closer look

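Some noncoding database entries at the loci of the 6 genes, which the comparisons by gene do not use, held signal in UUO urine above the level in WT urine. At the Atp1b3 locus NONRATT055602 was at 2.05 FPKM in UUO against 0.414 in WT urine, and NONRATT055600 had 1.23 in UUO urine and was listed at 0 in WT urine. At the Fxyd3 locus NONRATG002670 had 1.11 and NONRATT005025 had 1.01 in UUO urine, and both were listed at 0 in WT urine. Their values were close, and whether they hold the same signal was not tested. At the Fxyd2 locus NONRATG028489 had 1.03 in UUO against 0.986 in WT urine. All 5 lie below the value of 3 fragments on 1000 bp except NONRATT055602, and how reads were shared with the gene at the same locus was not tested.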

How the results depend on the processing

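No paired analysis was possible because there is 1 library per group. Differences are taken as unchanged when they keep their sign and their side of 1, and counts and shares when they stay within 1.5 times. Outside the gene lists, 66 of the values recomputed under the alternatives were unchanged, 29 moved and 7 changed sign. The differences of Fxyd3 and Atp1b2 counted as unchanged throughout. Fxyd3, listed at 0 in WT urine, could not change sign, so only its side of 1 could have moved. Atp1b2 had no level to compare, and its difference went from 0.000381 to 0.70 with the locus sum. Rescaling to equal sums gave 0.11 for Atp1b1 and left 20.8% of genes lower. The median ratio gave 0.42 for Atp1b1 and 0.11 for Fxyd2, with 40.7% of genes higher and 14.9% lower. The 75th percentile over features above 0 in either library multiplies UUO values by 0.105, because most of these features are at 0 in WT urine, and gave -3.45 for Atp1b1, -0.69 for Atp1b3, -4.06 for Fxyd2, 0.51 for Fxyd5, a median of -2.07 over the 4 of the 6 genes that then passed the filter, 1 of them higher and 2 lower, and 2.73% of genes higher and 93.7% lower. The 75th percentile of each library's own values above 0, chosen after seeing the data, multiplies them by 6.34 instead and gave 2.13 for Atp1b1 and 1.84 for Fxyd2, 5 of the 6 genes higher, and 79.2% of genes higher and 3.597% lower. A pseudocount of 10 gave 0.49 for Fxyd5 and for the median, with 3.76% of genes higher and 17.96% lower. Summed over the locus, Atp1b3 and the median were at 0.98, and the ratio of Atp1b3 to Atp1b1 in WT urine was 0.253. Such sums may count the same signal more than once. With an FPKM of at least 5 the median was 0.82 and 14.0% of genes were higher, without a filter 15.4% were higher and 21.8% lower, and at a 4-fold limit 10.7% and 12.03%.

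Of the list medians, those of sodium entry (0.26), sodium transport control (0.38) and tubule markers (0.42) turned above 0 with equal sums, and reached 0.55, 0.68 and 0.72 by the median ratio and 2.05, 2.40 and 2.43 by each library's own 75th percentile, where pump relatives and partners reached 1.58. By the other 75th percentile, channels fell to -3.00, urothelial markers to -2.54 and leukocyte markers to -1.18. With an FPKM of at least 5 the median of channels was -1.91. Fewer genes pass a stricter filter, and a scaling moves all UUO values by 1 factor. The depth behind the WT values of Atp1b3, Fxyd3 and Fxyd5 limits what their low levels and zeros can show.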
